A study of Mus musculus with 4 samples.

Results

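A set of 10 genes of the cellular response to low oxygen was followed in primary mouse embryonic fibroblasts of 4 genotypes, each represented by 1 RNA sequencing library. The genes were chosen by symbol: the factors Hif1a and Epas1, the oxygen sensors Egln1 and Egln3, and the target genes Bnip3, Ndrg1, P4ha1, P4ha2, Vegfa and Adm. All 10 were found among the 22496 symbols compared, and all 10 had a mean of at least 1 FPKM (fragments mapped to a gene, scaled to its transcript length and to the depth of the library) over the libraries. So did 11588 symbols in all, called measured below. The fibroblasts came from embryos of the C57BL/6 strain, and the libraries were labelled Wild-type, Gadd45-/- (named as Gadd45a in the design text), G3 Terc-/- and G3 Gadd45-/-Terc-/- (dKO). Terc encodes the RNA template of telomerase, G3 by convention is the third generation bred without it, and Gadd45a encodes a stress-induced protein. The labels gave no embryonic age, passage or oxygen level of the cultures, and did not say whether embryos were pooled. The design asks what each deficiency goes with alone and what both go with together.

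Hypoxia-inducible factor (HIF) is a pair of proteins, an oxygen-labile alpha subunit, encoded by Hif1a or Epas1, and the stable partner ARNT. In oxygen the EGLN enzymes hydroxylate prolines of the alpha subunit, which the von Hippel-Lindau protein then marks for destruction, while in low oxygen the alpha subunit accumulates and the pair binds DNA at short sites with the core ACGTG or GCGTG. HIF activity is thus set largely on the protein, which these RNA data do not show. Known targets in fibroblasts serve blood vessel growth, collagen maturation, removal of mitochondria and glycolysis, and Egln1 and Egln3 are themselves targets.

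Promoter sequences were matched from RefSeq (GRCm38.p6) for 8 of the 10 genes, with 2 start sites for Vegfa. Epas1 and Ndrg1 were not matched. The 250 bases upstream of each start were searched for ACGTG and for GCGTG on both strands. ACGTG was found in 7 of the 9 windows, against 21.8% of the 10663 windows of measured symbols and 16.6% of all 32851 windows. GCGTG was found in 6 of the 9 windows, against 45.3% and 28.2%. The windows held 50.8% to 86% G and C, and the part of that content in these shares was not tested. The windows without ACGTG were those of Adm, which held GCGTG at a pair of places on the opposite strand, and of 1 of the Vegfa starts. That Vegfa window (chr17:46032378-46032627, minus strand) also lacked GCGTG. The Vegfa window counted for both cores (chr17:46025164-46025413) belongs to a start farther downstream, within the gene. The promoters of a factor, a sensor and 2 targets that stood high in the same library are shown, 5′ to 3′ toward the start site, with capitals marking ACGTG read on either strand (overlapping matches on both strands give CACGTG).
Hif1a, chr12:73907617-73907866, plus strand: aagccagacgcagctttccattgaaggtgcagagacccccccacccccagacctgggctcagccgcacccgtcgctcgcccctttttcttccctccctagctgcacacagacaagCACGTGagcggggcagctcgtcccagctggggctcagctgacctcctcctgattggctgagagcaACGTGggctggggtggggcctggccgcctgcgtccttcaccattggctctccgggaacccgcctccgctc
Egln3, chr12:54203875-54204124, minus strand: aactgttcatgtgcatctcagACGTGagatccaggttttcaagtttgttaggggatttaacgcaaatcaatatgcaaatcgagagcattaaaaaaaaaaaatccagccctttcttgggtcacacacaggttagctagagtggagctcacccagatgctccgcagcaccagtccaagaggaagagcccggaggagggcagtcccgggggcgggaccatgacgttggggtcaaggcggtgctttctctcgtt
Bnip3, chr7:138909507-138909756, minus strand: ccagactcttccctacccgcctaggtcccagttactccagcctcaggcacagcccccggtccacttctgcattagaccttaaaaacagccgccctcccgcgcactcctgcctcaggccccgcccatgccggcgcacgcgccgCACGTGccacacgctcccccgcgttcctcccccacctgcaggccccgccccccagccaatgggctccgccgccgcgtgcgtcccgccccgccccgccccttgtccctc
P4ha2, chr11:54100674-54100923, plus strand: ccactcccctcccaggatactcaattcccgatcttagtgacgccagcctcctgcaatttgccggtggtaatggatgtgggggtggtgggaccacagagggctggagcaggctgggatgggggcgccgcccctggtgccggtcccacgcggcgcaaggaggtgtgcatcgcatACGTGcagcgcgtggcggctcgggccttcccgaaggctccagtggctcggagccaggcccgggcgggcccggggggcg
Hif1a and Bnip3 each held CACGTG, a palindrome in which both strands carry the core, as did 8.38% of the windows of measured symbols. In Bnip3 the match on the gene's own strand began 107 bases upstream of the start, in P4ha2 78 and in Egln3 229. Hif1a held a pair of own-strand matches, which began 134 and 70 bases upstream. A match describes letters, not a bound site.

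The libraries had an estimated depth of 19482446 to 19947155 fragments. Gadd45a went against the labels, at 22.9 FPKM in the wild-type library, 33.9 in the one labelled Gadd45-/-, 31.4 in that labelled G3 Terc-/- and 45.1 in that labelled G3 dKO, so genotypes are given as labelled. Terc was listed at 0.53, 0.26, 0 and 0 FPKM in that order. The library labelled Gadd45-/- held Ddx3y, a Y-linked gene, at 16.4 FPKM and Xist at 0.15, while the others held Ddx3y at 0.023 or less and Xist at 24.0 to 34.1, so sex differed along with the label in comparisons that use it. All 8 fibroblast markers exceeded 1 FPKM, with a summed level of 5710 to 12007 FPKM that was lowest in the library labelled G3 Terc-/-. Since no genotype had a second culture, no test was possible, and the 95% intervals below cover counting error only, from estimated fragment numbers. The smallest of these numbers among the 10 genes was 133 fragments, for Egln3 in wild type. In RNA from bulk cultures, fewer cells of a type and less RNA per cell cannot be told apart.

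The 10 genes fell into 2 patterns. In the first were 8 of them (Hif1a, Egln1, Egln3, Bnip3, P4ha1, P4ha2, Vegfa and Adm), which were lowest in wild type, slightly higher in the library labelled Gadd45-/-, higher again in that labelled G3 dKO and highest in that labelled G3 Terc-/-. Among measured symbols, 25.2% had both Terc-proficient libraries below that labelled G3 dKO and the latter below that labelled G3 Terc-/-. This share did not require wild type to lie below the library labelled Gadd45-/-. For Egln1, Egln3 and P4ha1 that step lay within the counting interval. Epas1 and Ndrg1 stood lower in both G3 libraries than in both others, an arrangement shared by 35.2% of symbols. The spread from the lowest to the highest library ran from 1.93-fold for P4ha1 to 27.2-fold for Adm.

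**Figure D1:**
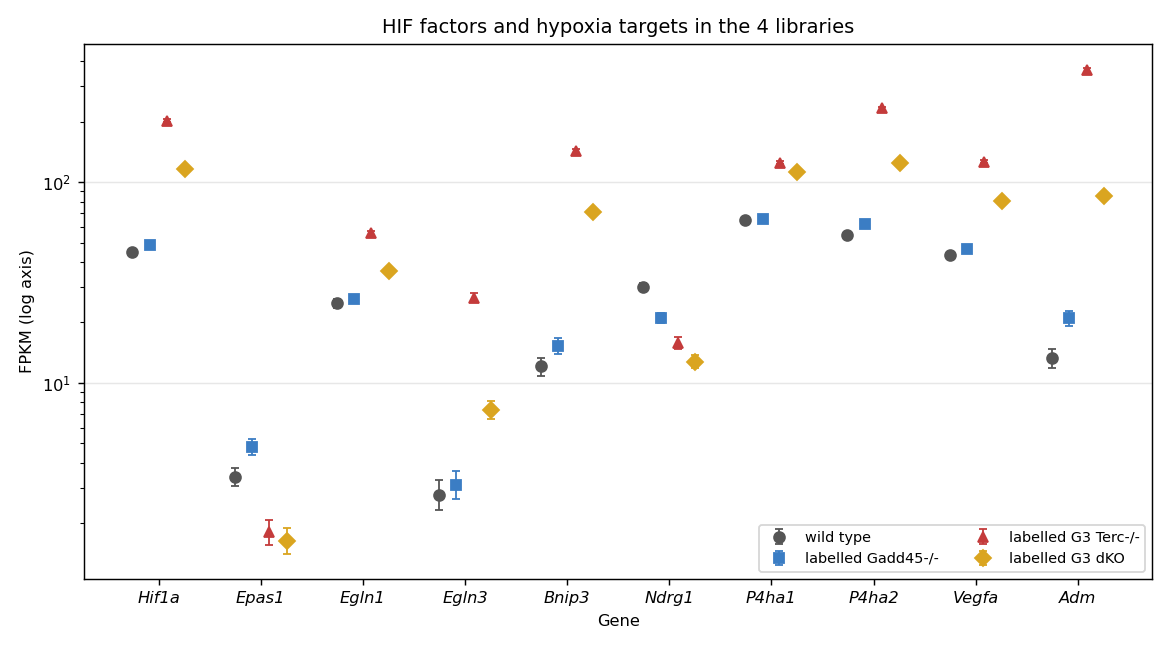
Level of each of the 10 genes in each library, in FPKM on a log axis, with bars for the 95% counting interval (some are smaller than the symbols). The triangles (labelled G3 Terc-/-) are the highest point for 8 genes, with Adm at 360 FPKM, while Epas1 and Ndrg1 have both G3 points below the other pair.

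Of the factors, Hif1a, the broadly expressed alpha subunit, stood at 44.6 FPKM in the wild-type library, 48.8 in the one labelled Gadd45-/-, 202 in that labelled G3 Terc-/- and 115 in that labelled G3 dKO. Ordered by level, each library differed from the next beyond the counting interval of their ratio. The library labelled G3 Terc-/- held 4.52 times the wild-type level (95% counting interval 4.37 to 4.68), and the one labelled G3 dKO 2.59 times (2.49 to 2.68). Epas1, which encodes HIF-2 alpha and is best known from blood vessel lining cells, was the lowest of the 10 genes on average and measured 3.41, 4.81, 1.81 and 1.64 FPKM in that order. Its G3 values could not be told apart by counting (ratio 0.90, 0.73 to 1.11), while the library labelled Gadd45-/- held 1.41 times the wild-type level (1.23 to 1.62). Per length, Hif1a outnumbered Epas1 by 13.1-fold in wild type, 10.1-fold in the library labelled Gadd45-/-, 111-fold in that labelled G3 Terc-/- and 70.6-fold in that labelled G3 dKO. Markers of endothelial cells, which are rich in Epas1, were near 0. The 7 markers summed to 0.71, 0.47, 1.71 and 1.99 FPKM in that order, none reached 1 FPKM in any library, and Cldn5 was at 0 in all. The part of such cells in the Epas1 differences was not tested.

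The sensors differed in the size of their spread. Egln1, encoding PHD2, the main HIF prolyl hydroxylase in most cells, measured 24.9, 26.1, 55.5 and 36.1 FPKM in that order, with the Terc-proficient libraries not told apart by counting. Egln3, encoding PHD3, the most strongly hypoxia-inducible of the enzymes, measured 2.78, 3.12, 26.6 and 7.32 FPKM. It was 9.58-fold higher in the library labelled G3 Terc-/- than in wild type (8.01 to 11.4) and 3.63-fold higher than in that labelled G3 dKO. The third enzyme gene, Egln2, which is not regarded as a hypoxia target, was lowest where they were highest, at 36.9, 37.8, 25.9 and 32.9 FPKM. Of the summed FPKM of the 3 genes, Egln2 held 57.1% in wild type and 24.0% in the library labelled G3 Terc-/-, while Egln3 went from 4.30% to 24.6%. The library labelled G3 dKO lay between them, with 43.1% for Egln2 and 9.60% for Egln3.

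Bnip3, an outer mitochondrial membrane protein that promotes mitophagy, stood at 12.1 FPKM in the wild-type library, 15.2 in the one labelled Gadd45-/-, 142 in that labelled G3 Terc-/- and 71.3 in that labelled G3 dKO. The library labelled G3 Terc-/- held 11.8 times the wild-type level (10.6 to 13.1), and 99.3% of measured symbols had a lower difference there. Its relative Bnip3l, also a mitophagy receptor, measured 23.3, 22.1, 49.6 and 31.0 FPKM, so that Bnip3 was the less abundant of the pair in both Terc-proficient libraries and the more abundant in both G3 libraries. The ratio of Bnip3 to Bnip3l was 0.52, 0.69, 2.87 and 2.30 in that order.

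P4ha1 and P4ha2 encode alternative catalytic subunits of the collagen prolyl 4-hydroxylase, which stabilises the collagen triple helix. P4ha1 measured 64.8, 65.6, 125 and 112 FPKM in that order, the narrowest spread of the 10 genes. P4ha2 measured 54.3, 61.8, 233 and 125 FPKM, and was 4.29-fold higher in the library labelled G3 Terc-/- than in wild type (4.09 to 4.49). P4ha2 thus passed from below P4ha1 in both Terc-proficient libraries to above it in both G3 libraries, with ratios of 0.84, 0.94, 1.86 and 1.11. The third subunit gene, P4ha3, was lower in the library labelled G3 Terc-/- (23.4 FPKM) than in wild type (35.6), the library labelled Gadd45-/- (37.5) and that labelled G3 dKO (36.9), and its share of the 3 genes was 23.0% in wild type and 6.14% in the library labelled G3 Terc-/-. Of their substrates, Col1a1 stood at 4270 FPKM in the wild-type library, 1697 in the one labelled G3 Terc-/- and 4037 in that labelled G3 dKO.

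**Figure D2:**
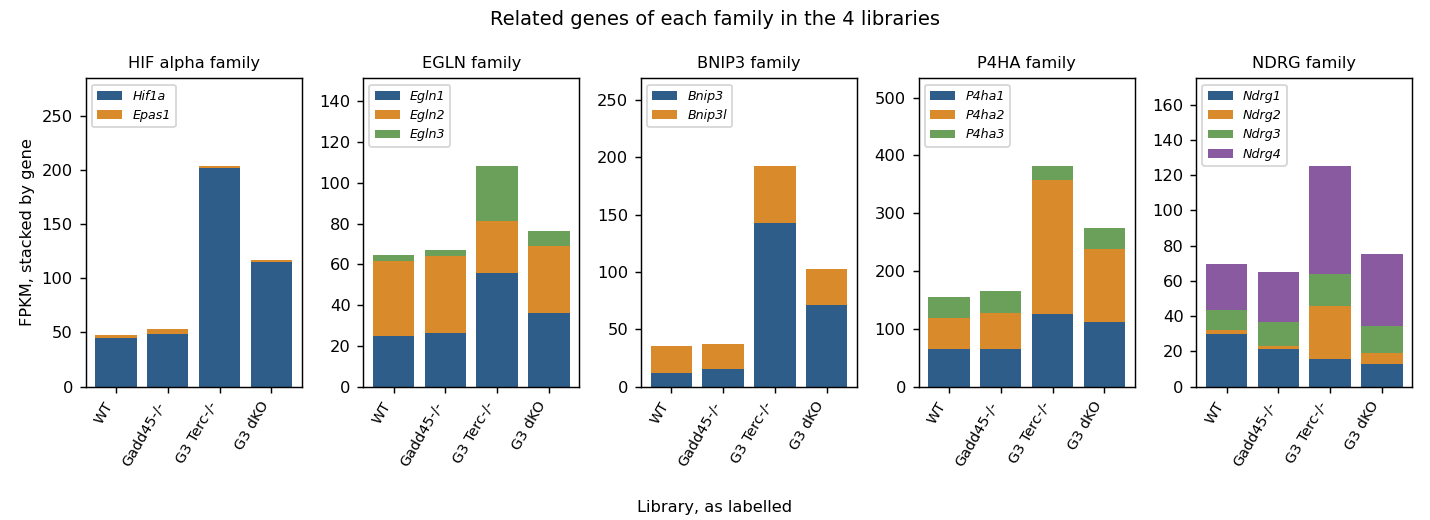
FPKM of related genes stacked in each library, in 5 families, with bars starting at 0. In the library labelled G3 Terc-/- the Egln3, Bnip3, P4ha2 and Ndrg2 portions are taller than in any other library, and the Egln2, P4ha3 and Ndrg1 portions are shorter than in wild type.

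Vegfa and Adm encode secreted signals. Vegfa, the vascular endothelial growth factor, measured 43.2, 46.7, 126 and 80.9 FPKM in that order, and was 2.93-fold higher in the library labelled G3 Terc-/- than in wild type (2.81 to 3.06). Adm, encoding the vasodilator peptide adrenomedullin, stood at 13.3 FPKM in the wild-type library, 21.0 in the one labelled Gadd45-/-, 360 in that labelled G3 Terc-/- and 85.5 in that labelled G3 dKO. Adm had the widest spread of the 10 genes. It was 27.2-fold higher in the library labelled G3 Terc-/- than in wild type (24.2 to 30.4), where it ranked 23 from the top of the 11588 symbols, and 4.22-fold higher there than in that labelled G3 dKO. It was also 1.58-fold higher in the library labelled Gadd45-/- than in wild type (1.37 to 1.82).

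Receptors of these signals differed among themselves. Flt1, a VEGFA receptor that is also made as a soluble decoy, measured 20.5, 17.7, 2.94 and 4.99 FPKM in that order, lower in both G3 libraries. The co-receptor Nrp1 measured 35.2, 46.1, 28.8 and 66.5 FPKM and was highest in the library labelled G3 dKO. Calcrl, a component of the adrenomedullin receptor, was low throughout (2.07 to 2.90 FPKM). Of the partner genes listed with it, Ramp1 was also low (1.09 to 2.52 FPKM). Ramp2 ran from 0.30 to 1.07 FPKM, below the mean needed to count as measured. Ramp3 stood higher, from 5.89 FPKM in wild type to 10.97 in the library labelled Gadd45-/-, with both G3 libraries between. Of the 6 measured receptor genes, none was higher and 1 lower (Flt1) by the size rule in the library labelled G3 Terc-/- against wild type. A difference above 0 was found for 3, where the median over all measured symbols was 0.0060. The size rule calls a gene when log2(FPKM + 1) differs by 1 or more either way, that is by 2-fold in FPKM + 1. In this comparison 9.93% of measured symbols passed it as higher and 6.23% as lower.

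Ndrg1, a stress-responsive gene linked to differentiation and to restraint of growth, departed from the other targets. It stood at 30.0 FPKM in the wild-type library, 21.1 in the one labelled Gadd45-/-, 15.8 in that labelled G3 Terc-/- and 12.8 in that labelled G3 dKO, each differing from the next beyond the counting interval of their ratio. It was the single member lower in the library labelled Gadd45-/- than in wild type, at a difference of -0.49 on the log2(FPKM + 1) scale that 1.15% of symbols went below. Its relative Ndrg2 measured 2.09, 1.76, 30.0 and 5.99 FPKM, highest where 8 of the members were highest. The ratio of Ndrg2 to Ndrg1 was 0.070 in wild type, 0.083 in the library labelled Gadd45-/-, 1.90 in that labelled G3 Terc-/- and 0.47 in that labelled G3 dKO.

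Between the library labelled G3 Terc-/- and wild type, 7 of the 10 genes were higher by the size rule, against 9.93% of the 11588 symbols, and none was lower, against 6.23% (16.2% in either direction). The median difference of the 10 genes was 1.80, beside 0.0060 over all these symbols. The 7 were Adm (4.66), Bnip3 (3.46), Egln3 (2.87), Hif1a (2.15), P4ha2 (2.08), Vegfa (1.53) and Egln1 (1.13). P4ha1 lay just under the rule at 0.94, and Epas1 (-0.65) and Ndrg1 (-0.89) lay on the other side of 0. The mitotic and replication markers Mki67 (27.9 and 2.97 FPKM), Top2a (45.2 and 8.09), Ccnb1 (36.5 and 4.06) and Mcm5 (23.0 and 3.95) were lower in the library labelled G3 Terc-/- than in wild type. Their part in these differences was not tested.

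In the library labelled G3 dKO all 10 genes stood below the library labelled G3 Terc-/-, although for Epas1 the step lay within the counting interval. This comparison and that of the library labelled G3 Terc-/- with wild type share a library, so they do not stand independently. Adm (-2.06) and Egln3 (-1.73) passed the size rule as lower, against 4.78% of symbols, and none as higher, against 1.52% (6.3% in either direction). Bnip3, at -0.99, lay just inside the rule with a level 0.50 times as high (0.48 to 0.53). P4ha2 (-0.89), Hif1a (-0.80), Vegfa (-0.64) and Egln1 (-0.61) followed, and the smallest differences were those of Ndrg1 (-0.28), P4ha1 (-0.15) and Epas1 (-0.09). The median was -0.72, beside -0.031 over all symbols, where differences below 0 were thus common too. Quantile normalization gave Epas1 the opposite sign (0.054). The same normalization changed the share of higher calls among all symbols called from 24.1% to 35.7%. Mki67 (8.69 against 2.97 FPKM), Top2a (18.8 against 8.09), Ccnb1 (14.0 against 4.06) and Mcm5 (8.75 against 3.95) stood higher in the library labelled G3 dKO.

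**Figure D3:**
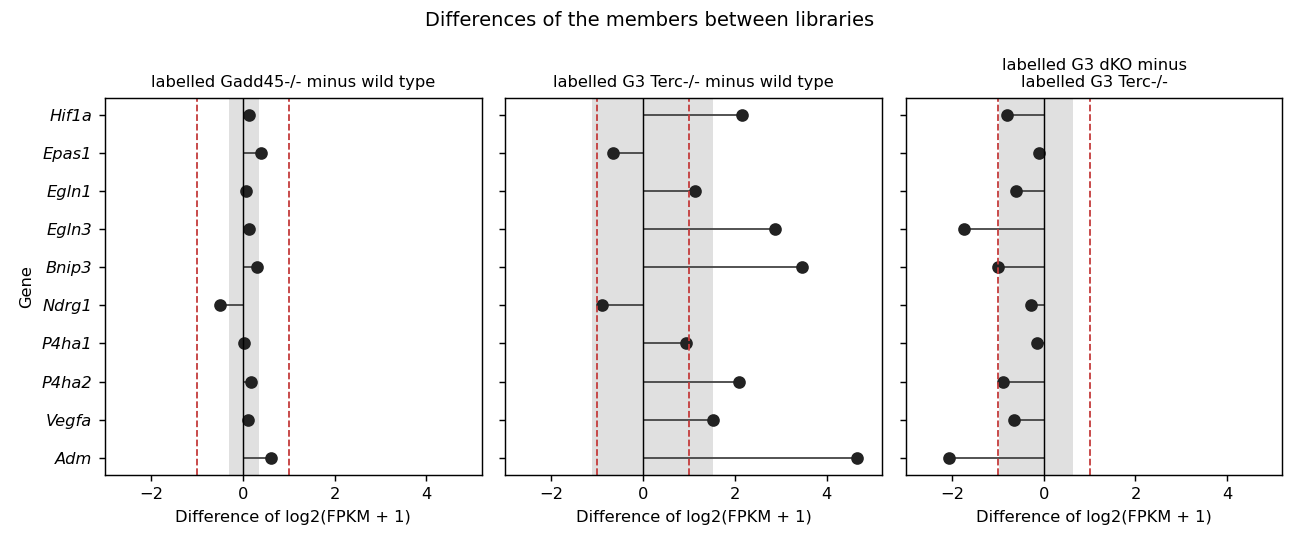
Difference of log2(FPKM + 1) of each gene in 3 comparisons, with dashed lines at the size rule of -1 and 1 and grey bands from the 5th to the 95th percentile of the 11588 symbols. In the first panel all points lie within the dashed lines, in the middle 7 lie to the right of the rule, and in the last Adm and Egln3 lie to the left of it.

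The library labelled G3 dKO still stood apart from both Terc-proficient libraries. Against the library labelled Gadd45-/- it was higher by the size rule for 5 genes, against 2.49% of symbols, and lower for Epas1 (-1.14), against 2.34% (4.83% in either direction). Those higher were Bnip3 (2.16), Adm (1.97), Hif1a (1.23), Egln3 (1.01) and P4ha2 (1.01). Against wild type the same 5 symbols were higher, against 3.81% of symbols, namely Adm (2.60), Bnip3 (2.47), Hif1a (1.35), P4ha2 (1.19) and Egln3 (1.14). Ndrg1 (-1.17) was lower, against 2.84% (6.65% in either direction). Both comparisons use the library labelled G3 dKO, so they do not stand independently. Egln3 and P4ha2 lay just past the rule in the first of them. With a pseudocount of 5 FPKM in place of 1, the count against the library labelled Gadd45-/- became 3 higher and 0 lower. Against wild type, Ndrg1 then lay inside the rule (-0.98), and a pseudocount of 0.1 FPKM added Epas1 as lower (-1.02). Of the log2 difference between the library labelled G3 Terc-/- and wild type, the library labelled G3 dKO, set against the same wild type, held from 39.7% for Egln3 to 83.5% for P4ha1 among the 8 genes of the first pattern, with 71.4% for Bnip3 and 62.8% for Hif1a.

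Between the Terc-proficient libraries none of the 10 genes passed the size rule, against 0.328% of symbols that were higher and 0.19% that were lower. Of the 10, 9 had a positive difference, from 0.017 for P4ha1 to 0.62 for Adm, and for Egln1, Egln3 and P4ha1 it lay within the counting interval. The median was 0.13, beside -0.027 over all symbols. In Terc-proficient cells the library with the Gadd45-/- label was thus above its counterpart for 9 of the genes. In G3 cells the library with that label was below its counterpart for all 10, for Epas1 within the counting interval. The same combination of signs as in these 9 genes was found in 22.9% of symbols. The double difference, the G3 difference minus the Terc-proficient one, was lowest for Adm at -2.69, where 0.846% of symbols went below it, then Egln3 at -1.85 (2.05%), Bnip3 at -1.30 (3.77%) and P4ha2 at -1.07 (5.21%). It was -0.93 for Hif1a, -0.75 for Vegfa, -0.67 for Egln1, -0.49 for Epas1, -0.17 for P4ha1 and 0.21 for Ndrg1. With 1 library per genotype this quantity has no residual degrees of freedom and no error between cultures. Sex differed along with the label in its Terc-proficient part and not in its G3 part.

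The rest of the sensing machinery, taken as a list of 15 genes of which 14 were measured, lay mostly within the size rule. In the library labelled G3 Terc-/- against wild type, 2 of the 14 were higher by the size rule and none lower, beside 9.93% and 6.23% of measured symbols, and the median difference was -0.17. The 2 were Arnt2, a tissue-restricted relative of Arnt (2.93, 2.78, 13.9 and 4.96 FPKM in wild type and the libraries labelled Gadd45-/-, G3 Terc-/- and G3 dKO), and Cited2, a HIF target that competes with HIF for the coactivators p300 and CBP (59.6, 60.6, 156 and 67.8 FPKM). Both were lower again in the library labelled G3 dKO than in that labelled G3 Terc-/-, at differences of -1.32 for Arnt2 and -1.19 for Cited2 on the log2(FPKM + 1) scale. Arnt itself measured 19.2, 18.3, 20.8 and 18.4 FPKM and Vhl 8.25, 8.24, 10.2 and 11.5, and neither passed the size rule in any comparison. Siah2, a ubiquitin ligase that degrades EGLN enzymes, lay at the edge of the rule, past it under both scalings and a pseudocount of 0.1 FPKM, with 11.9, 12.0, 5.46 and 7.48 FPKM.

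Of 37 measured HIF targets outside glycolysis, out of 40 listed, the size rule called 17 higher and 1 lower in the library labelled G3 Terc-/- against wild type, beside 9.93% and 6.23% of measured symbols. The median difference was 0.99, beside 0.0060 over all measured symbols, and 35 of the 37 differences were above 0. Ndufa4l2, a mitochondrial protein linked to lower respiration in hypoxia, measured 0.41, 2.24, 44.7 and 10.4 FPKM in that order, and Cox4i2, a cytochrome oxidase subunit isoform, 0.69, 0.29, 14.0 and 0.67. The lipase inhibitor Angptl4 measured 6.87, 7.63, 43.5 and 6.64 FPKM and Fam162a 107, 127, 601 and 283. Cox4i2 and Angptl4 were thus close to their wild-type values in the library labelled G3 dKO, while Ndufa4l2 and Fam162a lay between. The gene lower by the rule was Tfrc, the transferrin receptor, which falls outside the naming rule and was chosen after its values were seen (27.7, 28.5, 8.13 and 14.5 FPKM). In the library labelled G3 dKO against that labelled G3 Terc-/-, 7 of the 37 were lower by the rule and none higher, beside 4.78% and 1.52% of measured symbols, and the median difference was -0.38.

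Of 20 glycolytic targets, 10 were higher and none lower by the size rule in the library labelled G3 Terc-/- against wild type, beside 9.93% and 6.23% of measured symbols. The median difference was 0.99, beside 0.0060 over all measured symbols, and 18 of the 20 differences were above 0. Between the library labelled G3 dKO and that labelled G3 Terc-/- 1 was lower by the rule (Aldoc, chosen after its values were seen), beside 4.78%, and the median difference was -0.39. The lactate exporter Slc16a3 measured 28.0, 38.7, 121 and 78.1 FPKM, Pdk1, a kinase that keeps pyruvate out of mitochondria, 3.20, 4.13, 15.4 and 10.1, the glucose transporter Slc2a1 57.3, 69.0, 196 and 118, and the phosphofructokinase Pfkl 37.2, 42.7, 106 and 89.2. These 4 were named for the size of their difference between the library labelled G3 Terc-/- and wild type. Between the library labelled G3 dKO and wild type, 4 of the 20 glycolytic genes (median 0.51) and 6 of the 37 other targets (median 0.44) were higher by the size rule, beside 3.81% of measured symbols, and none was lower, beside 2.84%. Between the library labelled Gadd45-/- and wild type, 0 of the 20 (median 0.079) and 1 of the 37 (Ndufa4l2, median of the list 0.028) were higher, beside 0.328%.

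Of 9 partners and relatives of the collagen hydroxylases, none was higher by the size rule in the library labelled G3 Terc-/- against wild type, beside 9.93% of measured symbols, and 3 had a difference above 0. The 1 that was lower by the rule, beside 6.23%, was Serpinh1, the collagen chaperone HSP47 (1508, 1414, 753 and 1042 FPKM). The median difference of the 9 was -0.18, beside 0.0060 over all measured symbols. The lysyl hydroxylase genes Plod1 (0.89) and Plod2 (1.41, higher by the rule) were counted among the HIF targets outside glycolysis, not among these 9. Serpinh1 lay at the edge of the rule (-1.0005), and inside it after quantile normalization and with a pseudocount of 5 FPKM. Lepre1, a collagen prolyl 3-hydroxylase, measured 67.9, 69.5, 45.4 and 68.3 FPKM, and the related Leprel1 1.85, 1.76, 4.19 and 2.48. Leprel1 was past the rule as higher with a pseudocount of 0.1 FPKM. Of 10 relatives of Bnip3 and Ndrg1 and other measured mitophagy genes, 2 were higher by the rule and none lower, beside 9.93% and 6.23% of measured symbols. They were Ndrg2 and Ndrg4 (26.2, 28.5, 61.0 and 40.4 FPKM), and the median difference was 0.52. Bnip3l, the mitophagy receptor gene related to Bnip3, was counted among the HIF targets outside glycolysis, where it was higher by the rule (1.06). The mitophagy kinase gene Pink1 measured 15.6, 12.6, 30.8 and 21.6 FPKM and the autophagy gene Map1lc3a 62.7, 66.8, 114 and 87.6, both within the rule.

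**Figure D4:**
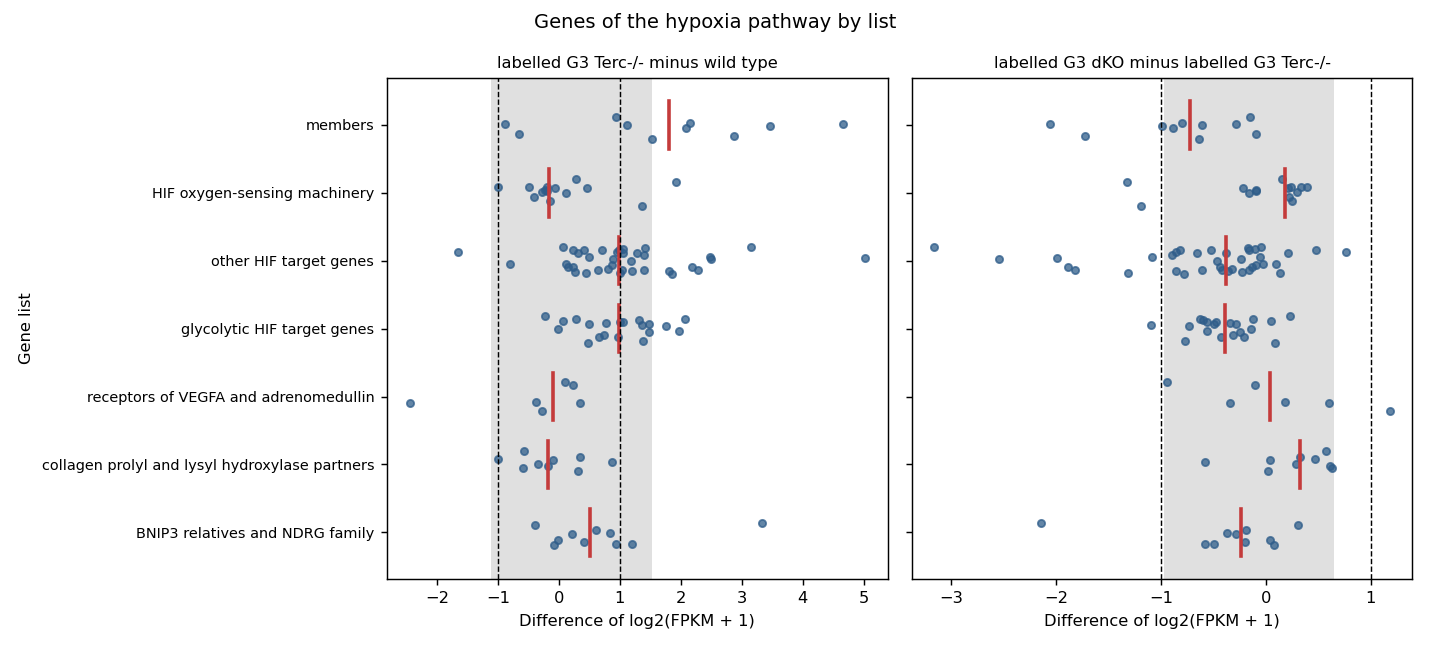
Difference of log2(FPKM + 1) of each measured gene (points), by list, with the list's median as a red bar, the size rule as dashed lines and the 5th to 95th percentile of the 11588 symbols in grey. In the left panel the medians of the members (1.80) and of both target lists (0.99) lie to the right of 0, while those of the sensing machinery, the receptors and the hydroxylase partners lie just left of it.

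Other genes with profiles like those of the members were sought by the Euclidean distance between log2(FPKM + 1) values centred over the 4 libraries, a description with 4 points per gene. Nearest to Adm were Sod3, the extracellular superoxide dismutase, at 13.7, 28.6, 378 and 96.3 FPKM (distance 0.30), and Ndufa4l2 (0.43). Nearest to Bnip3 were Efemp1, a matrix glycoprotein (14.3, 19.0, 158 and 79.4 FPKM, distance 0.13), and the cyclooxygenase Ptgs1 (0.18). Nearest to Egln3 were Dpep1 (0.19) and the transcription factor Cebpd (15.2, 16.8, 140 and 33.8 FPKM, distance 0.23), and nearest to Hif1a were Aplp1 (0.12) and the growth factor Igf1 (0.13). P4ha2 lay closest to Msi1 (0.10) and to Pdk4, another pyruvate dehydrogenase kinase (0.11), and Vegfa to Apc2 (0.043) and Crebl2 (0.051). Egln1 lay closest to Pld3 (0.026) and Frzb (0.038), and P4ha1 to Mapk1ip1 (0.039) and Rassf3 (0.045). Epas1 lay closest to Fgfr2, a fibroblast growth factor receptor (7.67, 9.69, 4.14 and 3.83 FPKM, distance 0.087), and F630043A04Rik (0.15), and Ndrg1 to Odz4 (0.094) and Dcakd (0.12). Among the members themselves Hif1a and P4ha2 were the closest pair (0.16), and Epas1 and Adm the farthest apart (4.44).

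Markers of other cell types were compared across the libraries. The 7 macrophage and leukocyte markers summed to 4.60, 5.21, 5.55 and 17.1 FPKM in wild type and the libraries labelled Gadd45-/-, G3 Terc-/- and G3 dKO, with Lyz2 at 11.5 in the library labelled G3 dKO, and the 6 erythroid markers to 0.12 to 0.41 FPKM. The 6 epithelial markers summed to 9.22 FPKM in wild type and 1.67 to 2.73 elsewhere, and the 5 hepatocyte markers to 12.2 and 1.92 to 4.87. The 5 adipocyte markers summed to 32.2 FPKM in the library labelled G3 Terc-/- and 4.57 to 7.44 elsewhere, nearly all of it Fabp4, with Plin1, Cidec and Lep at 0 in all libraries. The 6 muscle markers summed to 79.6 to 141 FPKM and the 5 neural markers to 31.3 to 77.8, most of the latter from Tubb3. The muscle sum joined genes that went opposite ways. Tnnt2 measured 23.2, 13.2, 0.78 and 2.05 FPKM in that order, Des 25.9, 12.9, 12.1 and 18.6, and Acta1 38.0, 56.4, 66.6 and 120. The adipocyte sum was thus highest in the same library as 8 of the members, and the part of other cell types in the members' differences was not tested.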

How the data were processed

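Polyadenylated RNA was captured with oligo(dT), fragmented and primed with random hexamers, per the labels' protocols, giving 1 library per genotype. The authors deposited FPKM values, 1 per symbol in each library. The submitters' processing notes name mm9 as the build, with Cufflinks 2.2.1 and TopHat2 2.1.1, but no roles. The annotation, strand setting and filters are not given in the sources used here. With 1 value per gene, isoforms could not be separated, and values of overlapping genes and near-identical copies are uncertain.

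Of 23235 symbols, 739 of short RNA were left out. The difference of log2(FPKM + 1) was taken in 5 comparisons, where the pseudocount of 1 understates changes of low genes, and counts refer to symbols with a mean FPKM of 1 or more. Depth was estimated from FPKM up to 0.05 on genes with 1 transcript of 1500 to 8000 nt (GENCODE M21, lengths only) and a fragment length of 200 nt. Between 75.5% and 82.8% of these values lay within 0.1 of a whole fragment, although the depth was set from the same values. Fragment numbers of the members assume their longest coding transcript. Alternatives were pseudocounts of 0.1 and 5 FPKM, median-of-ratios scaling and quantile normalization. The calculation was tested on simulated data. The members, the 6 pathway lists and the marker lists were chosen with earlier results of these data known. Named are the members, up to 4 genes per pathway list with the largest difference between the library labelled G3 Terc-/- and wild type, machinery genes past the size rule, the 2 nearest profiles of each member, and the markers. Arnt, Vhl, Bnip3l, Plod1, Plod2, Ramp2, Ramp3, Xist and Ddx3y were named besides this rule, after their values were seen. Python 3.11.15, pandas 2.3.3 and numpy 2.4.6 were used.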

Additional observations from a re-analysis of the deposited data

Results flagged for a closer look

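A group of 5 members differed between the libraries with and without the Gadd45-/- label in opposite directions in Terc-proficient and in G3 cells, each time beyond the counting interval. The difference in G3 cells minus that in Terc-proficient cells, on the log2(FPKM + 1) scale, was -2.69 for Adm, -1.30 for Bnip3, -1.07 for P4ha2, -0.93 for Hif1a and -0.75 for Vegfa. All were higher in the library labelled Gadd45-/- than in wild type and lower in that labelled G3 dKO than in that labelled G3 Terc-/-. By sign alone, without the counting condition, 22.9% of the 11588 measured symbols had this combination. With 1 library per genotype the difference between the backgrounds was not tested. Sex differed along with the label in the Terc-proficient comparison and not in the G3 one. Gadd45a RNA was not lower in the libraries with the label than in their counterparts.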

How the results depend on the processing

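Of 200 member differences recomputed with another pseudocount or scaling, 199 kept their sign, and the exception was Epas1 between the G3 libraries under quantile normalization (0.054). The counts of members past the size rule stayed within 1.5 times the reported ones except in 2 comparisons. Between the libraries labelled G3 dKO and Gadd45-/-, a pseudocount of 5 FPKM gave 3 higher and 0 lower. Between the library labelled G3 dKO and wild type, 0.1 FPKM gave 2 lower and 5 FPKM gave 0 lower. For the pathway lists, 224 of 240 recomputed counts lay within 1.5 times. The pseudocount moved the counts over all symbols most: between the library labelled Gadd45-/- and wild type 38 were higher and 22 lower as reported, 123 and 57 with 0.1 FPKM, and 11 and 9 with 5 FPKM. Between the library labelled G3 Terc-/- and wild type 5 FPKM gave 595 higher and 328 lower against 1151 and 722. Between the G3 libraries 0.1 FPKM gave 344 higher against 176, 5 FPKM gave 71 higher and 317 lower against 176 and 554, and quantile normalization gave 273 higher. For the library labelled G3 dKO against that labelled Gadd45-/-, 0.1 FPKM gave 520 and 445 and 5 FPKM gave 106 and 83, against 289 and 271, and against wild type they gave 720 and 512, and 171 and 127, against 442 and 329. A larger pseudocount shrinks all differences by construction. No paired analysis was possible because each genotype had 1 library, and no replicate could be left out. Depth limits Epas1 and Egln3 most, with 133 to 173 estimated fragments in their lowest libraries.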
